A study of Homo sapiens with 3 samples.

Results

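HMGA1 peaks were mapped by chromatin immunoprecipitation and sequencing (ChIP-seq) in DAMI cells, a human leukaemic line labelled as myeloproliferative neoplasm and acute myeloid leukaemia. The line was grown without any treatment named in the labels, and 3 libraries were made from sonicated nuclei: an HMGA1 ChIP, a histone H3 ChIP and input DNA without antibody, with 1 library each. The HMGA1 library was called against input DNA (the input list, 385953 peaks) and against H3 (the H3 list, 263033 peaks), so the lists differ in their control alone and a peak found in both is not a replicate. Described here are the peaks in 2 blocks of chromosome 19, chosen by the position of their summit on the hg19 build alone. The proximal block runs from 19800000 to 24600000, just before the long peak-free stretch in the middle of the chromosome, and the distal block from 52000000 to 59128983, at the end of the long arm. They held 1065 of 385953 input-list peaks (571 proximal and 494 distal) and 623 of 263033 H3-list peaks (274 and 349).

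HMGA1 is an architectural chromatin protein whose AT-hooks bind the minor groove of AT-rich DNA. Chromosome 19 is known for tandem clusters of zinc-finger genes, most of which encode KRAB zinc-finger proteins, DNA-binding repressors that recruit the corepressor TRIM28 and silence transposable elements. Such clusters grew by local duplication, so neighbouring genes resemble each other, and their gene bodies are known to carry H3K9me3 and HP1 in many cell types. In the RefSeq gene table, which is on another build (GRCh38.p14), 268 of 1451 protein-coding genes of chromosome 19 had a zinc-finger symbol (ZNF, ZFP, ZSCAN, ZIM, ZBTB, ZKSCAN or PEG3). They stood in 56 runs of neighbours, 12 of which had 8 genes or more, and the longest, from ZNF737 to ZNF681, held 27. The table's coordinates were not set against the hg19 peaks, so the label of the blocks was not checked here. Gene by gene, the peaks were not analysed here, and no hg19 sequence was read for them. Runs also lie outside the blocks if the table's order holds, so the rest of the chromosome is not taken as free of such genes.

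Over input the proximal block was the densest of the regions compared. It held 119 peaks per Mb (95% Poisson interval 109.4 to 129), against 69.3 (63.3 to 75.7) in the distal block and 54.1 (52.1 to 56.3) in the rest of the chromosome. It was thus 2.20 times as dense as the rest (interval 2.003 to 2.41), and the distal block 1.28 times (1.16 to 1.41). Of the 60 windows of 1 Mb on the chromosome, 4 lay wholly inside the proximal block. By number of input-list peaks they ranked 1, 4, 5 and 6, led by 169 peaks from 21000001 to 22000000. Ranks 2 and 3, with 139 and 116 peaks, lay between the blocks. By number of H3-list peaks the same 4 windows ranked 1, 12, 18 and 24. Each antibody has a single library, so no replicate error can be given and blocks were not tested against each other. Intervals cover counting error only and treat peaks as independent, although neighbouring peaks can share reads.

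Over H3 the blocks were closer to each other. The proximal block held 57.1 peaks per Mb (50.5 to 64.3) and the distal block 49.0 (44.0 to 54.4), a ratio of 1.17 whose interval (0.992 to 1.37) includes 1. That interval no longer includes 1 when peak-free stretches of at least 1 Mb are left out (1.24, 1.05 to 1.46), with a fold of at least 4 (1.28, 1.07 to 1.52) or when the blocks are drawn in by 0.2 Mb at each end (1.23, 1.04 to 1.46). The rest of chromosome 19 held 34.4 per Mb (32.8 to 36.2), so the blocks were 1.66 (1.45 to 1.88) and 1.42 (1.26 to 1.60) times as dense. Input-list peaks covered 3.85% of the bases of the proximal block and 2.24% of the distal block, and H3-list peaks 1.64% and 1.47%.

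The rest of the chromosome is not uniform, and each block was also set beside its own neighbour. The stretch before the proximal block held 41.3 input-list peaks per Mb (38.5 to 44.2) and the stretch between the blocks 63.4 (60.5 to 66.5). The proximal block was 2.88 times as dense as the first (2.59 to 3.21) and 1.88 times as dense as the second (1.70 to 2.06). The distal block was 1.09 times as dense as the stretch between the blocks, with an interval of 0.987 to 1.21, so over input it was not told apart from the adjoining long arm. Over H3 that ratio was 1.17 (1.03 to 1.32). The stretch between the blocks includes nearly all of a 3152 kb stretch without input-list peaks, and 3310 kb without H3-list peaks. These empty bases are counted in its density and lower it, so they raise the ratios of both blocks to it. Ratios without such stretches were computed only against the whole rest of the chromosome and are given in the closing section. Whether the distal excess over H3 holds without them was not tested.

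**Figure D1:**
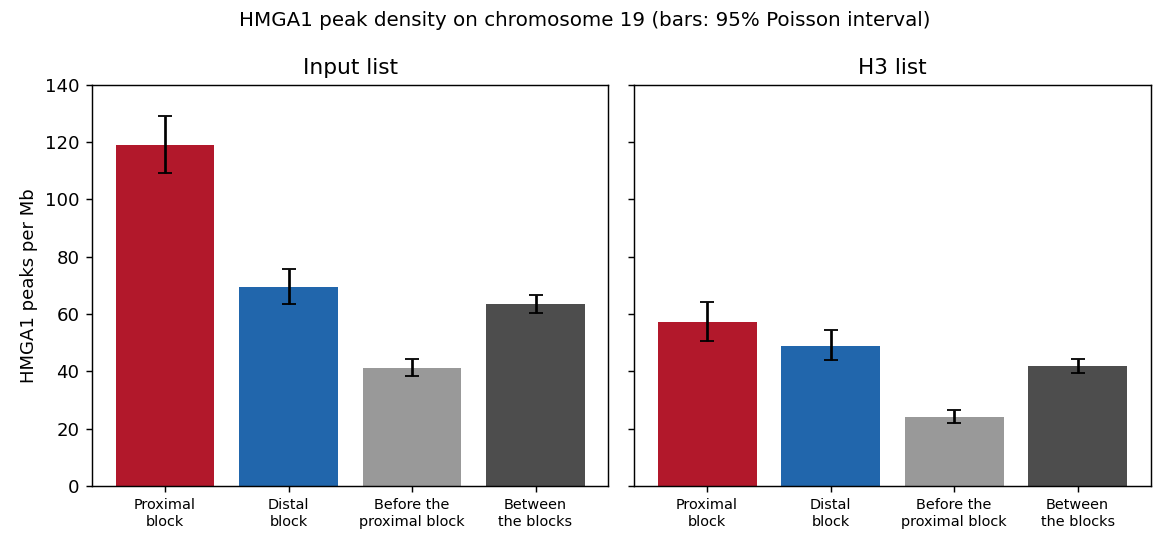
HMGA1 peaks per Mb in the 2 blocks and in the 2 stretches that make up the rest of chromosome 19, for the input list (left) and the H3 list (right), with 95% Poisson intervals for counting error. The proximal block stands at 119 per Mb over input, whereas over H3 it stands at 57.1 beside 49.0 in the distal block.

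The proximal block had many low peaks and few high ones. Here the height of a peak is the number of HMGA1 reads at its summit, recovered from the authors' fold and p-value. The median input-list summit held 16 reads in the proximal block (quartiles 13 and 19), 21 in the distal block (17 and 27) and 20 in the rest (16 and 27). The highest summit held 39 reads in the proximal block, 58 in the distal block and 80 in the rest. In the H3 list the medians were 19, 24 and 24 reads. The distal median thus lay within 1 read of the rest of the chromosome, while the upper quartile of the proximal block, 19 reads, lay below the other medians over input.

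The authors' fold over the control followed the same order over input, whereas over H3 the blocks were not told apart by their medians. Over input the median fold was 4.23 in the proximal block (quartiles 3.70 and 5.29), 4.77 in the distal block (3.85 and 6.24) and 4.76 in the rest (3.86 and 6.15). Over H3 it was 5.002 (order-statistic 95% interval 4.97 to 5.25), 5.13 (4.88 to 5.28) and 5.25, a smaller spread in which the intervals of the blocks overlapped. A fold of at least 5 over H3 was reached by 55.8% of the proximal and 53.0% of the distal peaks, against 56.6% in the rest. A fold of at least 6 was reached by 74 of the 571 proximal input-list peaks (12.96%) and by 146 of the 494 distal ones (29.6%), against a background of 23.1% over the whole input list. In the H3 list these were 57 of 274 (20.8%) and 96 of 349 (27.5%), against 31.3% over the whole list. The highest fold was 10.6 over input and 9.69 over H3 in the proximal block, and 15.6 and 13.1 in the distal block.

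Which block was denser depended on the height asked of a peak. With at least 15 reads the proximal block held 75.4 input-list peaks per Mb and the distal block 61.2. With at least 20 reads the order turned, to 28.75 (24.2 to 33.97) against 39.8 (35.3 to 44.8). With at least 25 reads it was 11.9 (8.99 to 15.4) against 22.9 (19.5 to 26.7), a ratio of 0.519 (0.377 to 0.706), and with at least 30 reads 3.33 against 11.8. No proximal peak had 40 reads or more, which allows up to 0.625 per Mb at 3 counts (exact Poisson upper limit 0.769). In the distal block 24 input-list peaks did. They were 4.86% of its peaks, near the 5.17% in the rest of the chromosome and the 5.47% between the blocks. Peaks of at least 25 reads made up 9.98% of the proximal block's input-list peaks and 33.0% of the distal block's, against a background of 28.3% over the whole input list. In the H3 list they made up 20.8% and 46.7%, against 41.3%.

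At 25 reads or more the proximal block no longer stood above its surroundings, although at 20 or more its density was still 1.36 times that of the stretch before it (1.12 to 1.65). At 25 or more its density over input was 1.01 times that of the stretch before it (0.742 to 1.35) and 0.568 times that of the stretch between the blocks (0.425 to 0.746). The distal block kept ratios of 1.94 (1.58 to 2.38) and 1.09 (0.913 to 1.30) to the same stretches. Only 2 proximal peaks were among the 20000 highest-q peaks of the input list and 1 among those of the H3 list. These are 0.350% and 0.365% of its peaks. The distal block had 26 and 24, or 5.26% and 6.88%, close to the shares over the whole lists, 5.18% and 7.60%.

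**Figure D2:**
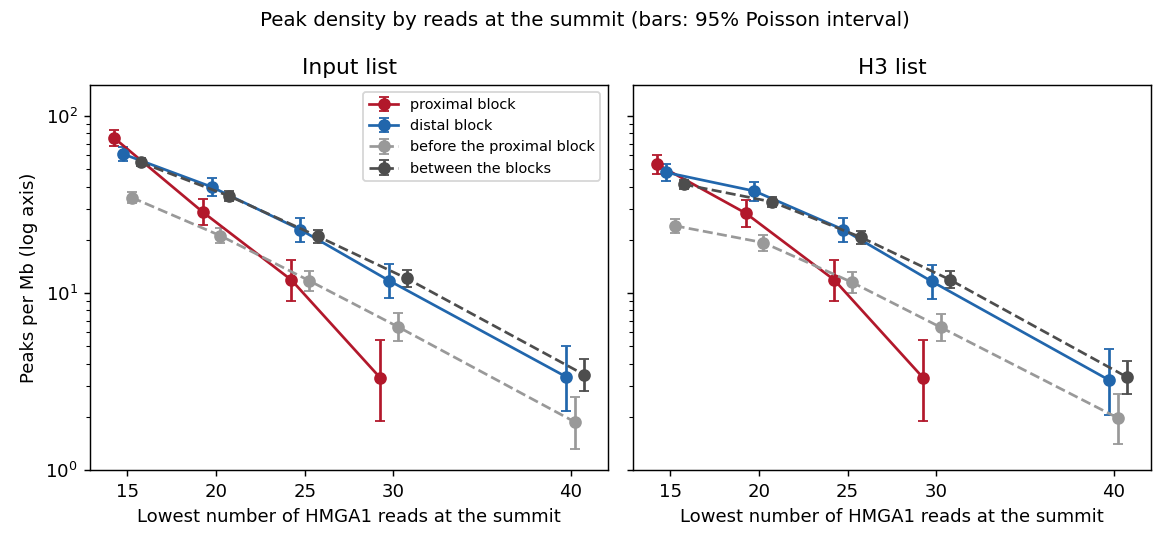
Peaks per Mb (log axis) with at least 15, 20, 25, 30 or 40 HMGA1 reads at the summit, for the input list (left) and the H3 list (right), with 95% Poisson intervals; points are shifted sideways slightly so that they do not cover each other. The proximal block starts highest and falls to 3.33 per Mb at 30 reads in both lists, with no peak at 40, while the distal block runs close to the stretch between the blocks.

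The control level at the peaks also differed between the blocks. MACS2 was taken to use a genome-wide mean as the lowest control level, 2.78 reads for input and 2.19 for H3, called the floor here. Input was at its floor at 81.1% of the proximal input-list peaks (463 of 571, Wilson 95% interval 77.7 to 84.1) and at 18.4% of the distal ones (91 of 494, 15.3 to 22.1). The background over the whole input list was 36.4%, so the blocks lay on either side of it. H3 was at its floor at 84.7% of the proximal H3-list peaks and at 6.02% of the distal ones, against 42.9% over the whole H3 list. Relative to the floor, the median control at distal peaks was 1.20 for input and 1.27 for H3. A peak over a lower control can be called with fewer HMGA1 reads. The part of the control level in the low heights and the high number of proximal peaks was not tested.

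Along the chromosome the control level of the median window changed sides at the central peak-free stretch, but single windows before the proximal block varied widely. Their share of input-list peaks at the floor ran from 8.97% to 92.3%. Of all input-list peaks before the block 63.5% were at the floor (519 of 817, 60.2 to 66.8), fewer than the 81.1% inside it. Among 1 Mb windows with at least 20 input-list peaks, the median window had 80.5% of its peaks at the floor before the proximal block (18 windows), 82.9% inside it (4 windows), 17.9% between the blocks (24 windows) and 20.4% inside the distal block (7 windows). Before the proximal block 13 windows had over 50% of their peaks at the floor, and these held 21 to 78 peaks. The 4 windows inside the proximal block, with 72.2% to 89.6% at the floor, held 109 to 169. The ranges of these input-list window counts did not overlap, and windows on both sides also held peaks off the floor. Counts of H3-list peaks did overlap. The window from 6000001 to 7000000, before the block, held 45 with 75.6% at the H3 floor. That from 23000001 to 24000000, inside it, held 44 with 93.2% at the H3 floor. Between the blocks, windows with 0% to 48.1% at the floor held 33 to 139 peaks, a range that overlaps that inside the proximal block. Windows with fewer than 20 peaks were left out, so the lowest counts depend on that limit. The part of the control level in the window counts was not tested. Counted by themselves, peaks at the input floor stood at 96.5 per Mb in the proximal block, 26.2 before it, 11.6 between the blocks and 12.8 in the distal block. The lists give the control only at peaks, so the share of all bases at the floor is not known.

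Peak widths differed little until peaks of like height were compared. The median width over input was 277 bp in the proximal block (quartiles 220.5 and 372.5), 283 bp in the distal block (228 and 353) and 275 bp in the rest (223.5 and 339). Over H3 it was 256, 253 and 260.5 bp. The narrowest peak in either list is 187 bp. In the input list the median width grew with reads in every region compared. Over H3 it grew through all classes only before the proximal block, from 193 bp at 8 to 13 reads to 285.5 bp at 25 or more. In the other regions it did not grow in the lowest classes. In the proximal block it was 265 bp at 8 to 13 reads (7 peaks) and 214.5 bp at 14 to 17 (74 peaks). Among input-list peaks of 18 to 20 reads the median width was 301 bp in the proximal block (order-statistic 95% interval 277 to 319) and 248 bp in the distal block (236 to 258). Before the proximal block it was 247 bp (239 to 258) and between the blocks 250 bp (244 to 259). For 21 to 24 reads the medians were 340 bp (305 to 394) and 277 bp (267 to 298). In these classes, then, proximal peaks were wider than distal ones.

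Where the control was at its floor, proximal medians stayed above those of the stretch before the block. From 18 reads up, the difference from the distal block held at 18 to 20 reads only. With input at the floor and 18 to 20 reads, 64 proximal peaks had a median width of 309.5 bp (295 to 345) and 104 peaks before the block 259.5 bp (248 to 276). Only 12 distal peaks met both conditions, with a median of 254 bp (239 to 275). At 21 to 24 reads over the floor the medians were 350.5 bp in the proximal block (298 to 398, 48 peaks) and 351 bp in the distal block (291 to 452, 21 peaks), against 286 bp before the proximal block (272 to 301, 83 peaks). Between the blocks it was 322 bp (296 to 355, 44 peaks). At 25 reads or more the proximal median was 384 bp (329 to 477, 38 peaks) and the distal one 449 bp (335 to 589, 24 peaks). Before the proximal block it was 325 bp (320 to 337, 99 peaks). From 21 reads up, the intervals of the proximal block and the stretch before it overlapped.

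Fewer than 1 in 2 proximal input-list peaks were also called over H3. Of the proximal peaks 267 of 571 (46.8%, Wilson 95% interval 42.7 to 50.9) overlapped an H3-list peak by at least 1 bp, against 339 of 494 in the distal block (68.6%, 64.4 to 72.6) and 62.0% (60.1 to 63.8) in the rest of the chromosome. The background over the whole input list was 65.8%, close to the distal share. The median proximal peak held 14 reads at 3.70-fold where no H3-list peak met it and 20 reads at 5.29-fold where one did. In the distal block these were 16 reads and 3.85-fold without, and 24 reads and 5.58-fold with. In the other direction 273 of 274 proximal and 342 of 349 distal H3-list peaks overlapped an input-list peak, against 98.3% over the whole H3 list.

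Among peaks of like height the order of the blocks depended on the class. At 8 to 13 reads 3.23% of 155 proximal and 6.25% of 32 distal peaks were also called over H3, and at 14 to 17 reads 33.6% (27.6 to 40.3, 71 peaks) and 28.6% (20.8 to 37.8, 30 peaks), with intervals that overlap. At 18 to 20 reads the shares were 85.4% in the proximal block (76.6 to 91.3, 89 peaks) and 64.2% in the distal block (54.9 to 72.6, 109 peaks), 60.0% before the proximal block and 59.4% between the blocks. At 21 to 24 reads the shares were 98.3% (91.0 to 99.7) and 89.4% (81.1 to 94.3), and at 25 reads or more they were 100% of 57 peaks and 98.8% of 163. Of the 304 proximal peaks without an H3-list counterpart, 150 held 8 to 13 reads and 140 held 14 to 17. Of the 155 such distal peaks, 30 and 75 did. With input at its floor the blocks were closer: at 18 to 20 reads 89.1% of 64 proximal peaks (79.1 to 94.6) and 83.3% of 12 distal ones (55.2 to 95.3) were called over H3, and at 21 to 24 reads 97.9% of 48 and 100% of 21. Before the proximal block the share at 18 to 20 reads over the floor was 65.4% (55.8 to 73.8).

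**Figure D3:**
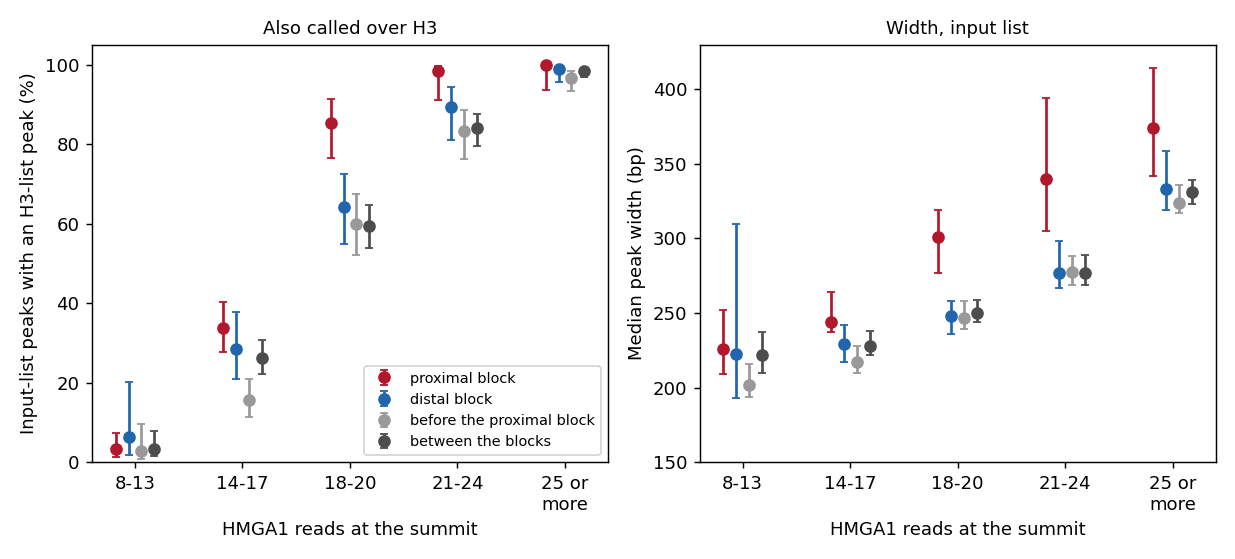
Input-list peaks by number of HMGA1 reads at the summit: the share that overlaps an H3-list peak (left, Wilson 95% intervals) and the median width (right, order-statistic 95% intervals) in the 2 blocks and the 2 other stretches of chromosome 19. At 18 to 20 reads the proximal block stands at 85.4% and 301 bp and the other 3 regions between 59.4% and 64.2% and between 247 and 250 bp.

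Where both lists placed a summit on 1 base, the recovered HMGA1 reads were equal and the controls can be set side by side. The proximal block had 126 such sites (median 20 reads, 5.55-fold over input and 5.25-fold over H3), with both controls at their floor at 86 of them (68.3%). The distal block had 140 (median 26 reads, 5.93-fold and 5.45-fold), with both controls at the floor at 3 (2.14%). Before the proximal block both were at the floor at 40.4% of 228 sites, and between the blocks at 3.54% of 452, close to the distal share. Relative to the floors, H3 was over 1.5 times as high as input at 1 proximal and 8 distal sites, and the reverse held at 5 and 16. In the rest of the chromosome these were 48 and 62 of 680 sites. The HMGA1 reads were multiplied by 0.787 in the H3 list, whose control floor was lower too, at 2.19 reads against 2.78 for input. With both controls at their floor, a proximal peak of 38 reads was 10.3-fold over input and 9.69-fold over H3.

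Within the proximal block the peaks were spread over nearly its whole length, with several dense windows. In its 24 windows of 0.2 Mb the input-list count ranged from 1 to 46 with a median of 21. The densest window, from 21200001 to 21400000, held 46 input-list and 20 H3-list peaks, and the next, from 21800001 to 22000000, held 40 and 26. The second of these held the most H3-list peaks of any window of the 2 blocks. Windows of 35 and 36 input-list peaks began at 22800001 and 23800001. The sparsest, from 24400001 to 24600000, held a single input-list peak and no H3-list peak. The longest stretch without an input-list peak, 259 kb from 24337445 to 24596440, lay there, and that single peak, from 24596441 to 24596630 with 19 reads, was followed by the 3152 kb peak-free stretch that ended at 27748506. Except for this window, the median height stayed between 14 and 18 reads in every window.

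The distal block was sparser. Its 35 full windows held 4 to 26 input-list peaks with a median of 14, and 2 to 18 H3-list peaks with a median of 9. The densest windows ran from 53600001 to 53800000, with 26 input-list and 12 H3-list peaks, and from 57600001 to 57800000, with 25 and 18. The sparsest, with 4 input-list and 2 H3-list peaks each, began at 55400001 and 58400001. The longest peak-free stretch was 128 kb over input, from 55256470 to 55384343. In the first of the 2 densest windows 53.8% of the input-list peaks were at the input floor and 46.2% were also called over H3, whereas in the other 8% were at the floor and 64.0% were called over H3. Across full windows the input-list and H3-list counts had a Spearman correlation of 0.874 in the proximal block (24 windows) and 0.901 in the distal block (35 windows). Both lists come from 1 HMGA1 library.

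**Figure D4:**
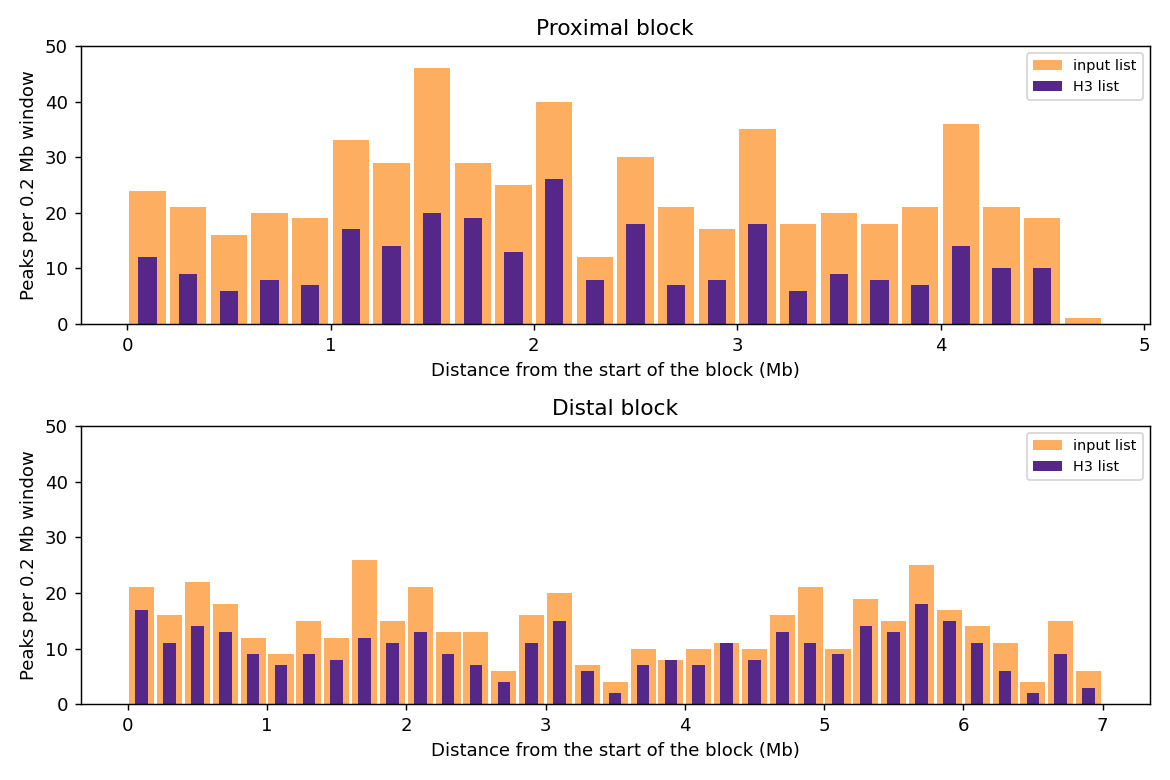
Input-list peaks (wide bars) and H3-list peaks (narrow bars) in successive 0.2 Mb windows along the proximal block (top) and the distal block (bottom), by distance from the start of each block. The proximal block reaches 46 input-list peaks in a window and ends with a window of 1, and no full distal window exceeds 26.

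Neighbouring summits in the proximal block were often close. The median distance between neighbouring input-list summits was 3760 bp (mean 8404), against 8574 bp (mean 14381) in the distal block, 13069 bp before the proximal block and 7124 bp between the blocks. Distances of at most 1 kb made up 17.2% in the proximal block, 7.10% in the distal block, 6.62% before the proximal block and 10.0% between the blocks. In groups linked by such distances stood 177 of the 571 proximal peaks (31.0%, in 79 groups) and 68 of the 494 distal ones (13.8%, in 33 groups). Closer spacing follows in part from the higher density itself. Proximal groups of 3 or more numbered 17, against 2 in the distal block. The largest had 4 peaks: from 21911567 to 21913737, with 12 to 22 reads and 3 of the 4 also called over H3, and from 23998464 to 24000386, with 12 to 23 reads and 1 of the 4 called over H3. Each group thus held peaks below and above the block's median of 16 reads. Over H3 the proximal block had 7 groups of 3 and the distal block none above 2, and the group from 21489122 to 21491117 included the highest fold of the proximal block over H3. The distal groups of 3 ran from 57225209 to 57226635 and from 57531077 to 57532456, with 13 to 24 reads in all.

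The strongest proximal peaks stood over a control at or near the input floor. The 5 highest by q-value were also the 5 highest by fold over input. The first ran from 19957807 to 19958321 (515 bp), with 39 reads and a fold of 10.6 over input, and was narrower and lower over H3, at 287 bp and 7.92-fold, where H3 stood at 1.37 times its floor. Next came the peak from 21489687 to 21490076, with 38 reads and folds of 10.3 over input and 9.69 over H3, the latter the highest over H3 in the block. Both controls were at their floor there. The peaks from 21260532 to 21261199 and from 21905352 to 21905760 were equal in height and fold, with 34 reads, 9.25-fold over input and 8.70-fold over H3, but 668 and 409 bp wide. The fifth ran from 21406360 to 21406699, with 34 reads and folds of 9.14 and 6.94. Of these 5 peaks 4 thus lay between 21260532 and 21905760.

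The widest proximal peak over input was not among them. It ran from 21126705 to 21128108 (1404 bp) with 25 reads at its summit and a fold of 5.70, and over H3 it fell into 2 peaks, of which the larger overlap was 829 bp wide at 6.48-fold. Over H3 the widest was 874 bp, from 23146490 to 23147363, with 18 reads. Of the proximal input-list peaks 5 were met by more than 1 H3-list peak, and of the distal ones 3. These were 1.87% and 0.885% of the peaks met by any H3-list peak. The shares were 1.93% before the proximal block and 0.717% between the blocks, so each block was near its neighbour.

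The strongest distal peaks were higher, and several changed rank with the control. Over input the leading peak ran from 57621579 to 57622335 (757 bp), with 58 reads, a fold of 15.6 and rank 894 by q-value in the whole list. Over H3 it was met by 2 peaks. The one with the larger overlap, 311 bp, had the same 58 reads but a fold of 6.66, with H3 at 2.74 times its floor, whereas input was at its floor. The peak from 54153477 to 54153835 went the other way: with 52 reads it was 11.6-fold over input and 13.1-fold over H3, the highest over H3 in the block. There input stood at 1.28 times its floor and H3 at its floor.

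Further distal peaks kept folds near or above 10 over both controls. The peak from 57146203 to 57146852 had 47 reads and folds of 12.1 over input and 10.3 over H3. That from 54139484 to 54139917 had 46 reads and folds of 12.4 and 10.3. The peak from 56791064 to 56791513 had 54 reads and folds of 10.1 and 10.9, those from 57597817 to 57598336 and from 55071004 to 55071723 had 44 and 46 reads and were 11.9-fold over input, and over H3 they were 10.9-fold and 10.96-fold. A peak among the 3 highest folds over H3, from 56085307 to 56085649, had 55 reads and was 11.1-fold over H3 but 8.84-fold over input, which stood at 1.92 times its floor. None of these distal peaks had fewer reads than the highest proximal peak.

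The widest distal peaks showed the same dependence on the control. Over input the widest ran from 55130054 to 55131732 (1679 bp) with 38 reads, 7.16-fold over input and 9.15-fold over H3, where it was 1553 bp wide. Over H3 the widest ran from 57679745 to 57681318 (1574 bp) with 42 reads and a fold of 10.4. Over input it was 4.77-fold, with input at 2.88 times its floor.

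At the edges set by position, the last input-list peak outside the proximal block ran from 19799749 to 19800026 with 18 reads and a fold of 5.02, and the first inside it from 19806253 to 19806525 with 21 reads and a fold of 5.82. On the other side the first peak after the block began at 27748507, with 14 reads. The distal block began with a peak from 52021048 to 52021381 (15 reads, 3.52-fold), and the last peak before it ran from 51981502 to 51981695 (15 reads, 3.70-fold). Its last peak ran from 59110909 to 59111188 with 33 reads, and no peak of chromosome 19 lay beyond it in either list.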

How the data were processed

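The submitters' processing notes name MACS2 and hg19. Which aligner, filters and release of MACS2 were used is not given in the sources used here. Each deposited row holds the authors' interval, summit, fold ratio over the control, −log10 p-value and −log10 q-value, and a score that follows 10 times the −log10 q-value (1 input-list row differs). The lists hold no read counts, so depth is unknown. Reads at the summit and control levels were recovered by finding the whole-number pileup whose Poisson tail gave the deposited p-value at the control level implied by the deposited fold. All 385953 input-list and all 263033 H3-list peaks fitted within 0.001, the latter after multiplying HMGA1 reads by 0.787, fitted on 400 peaks, and the recovery was tested on simulated data. At 114050 summits on the same base in both lists, reads were equal at 114050.

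Densities are peaks per Mb between the edges of a region, with exact Poisson intervals. Ratios have conditional binomial (Clopper-Pearson) intervals, shares Wilson intervals and medians order-statistic intervals, all at 95% and for counting error only. Single peaks and windows were named by rule, per block: the 5 highest q-values and 5 highest folds over input, the 3 highest folds over H3, the widest peak of each list, the 2 densest and the sparsest 0.2 Mb windows, and the longest peak-free stretch. Windows of 35 and 36 peaks, groups of peaks, peaks at the edges and 1 Mb windows were chosen outside that rule after their values were seen. The blocks, comparisons and lists were chosen with earlier results of these data known. Planned gene assignment was not run, since the table used is on GRCh38.p14. Alternatives were stricter q-values, folds and heights, other lengths, edges and definitions of overlap. Tools were matplotlib 3.10.9, scipy 1.17.1, pandas 2.3.3 and numpy 2.4.6 under Python 3.11.15. Positions are printed 1-based, and the edges of the blocks refer to the summit as the files count it, from 0.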

Additional observations from a re-analysis of the deposited data

How the results depend on the processing

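No paired analysis was possible because each antibody has 1 library, and for the same reason none could be left out. The alternative with at least 25 reads was chosen after the data were seen. The proximal block's density over the rest of the chromosome was 2.05 (input list) and 1.64 (H3 list) once peak-free stretches of 1 Mb or longer were left out, and the distal block's 1.19 and 1.32. Where the −log10 q-value had to reach 5, the proximal density over input was 1.71 times the rest and 1.32 times the distal block, and with a fold of at least 4 it was 1.82 and 1.38 times. With at least 25 reads these ratios reversed to 0.695 and 0.519 over input, and over H3 they came to 0.705 and 0.519. Among the 20000 highest-q peaks they were 0.133 and 0.114 over input and 0.0928 and 0.0619 over H3, on 2 and 1 proximal peaks. Against the stretch before the proximal block alone, the proximal ratio was 2.88 (input) and 2.36 (H3) and the distal ratio 1.68 and 2.02. Against the stretch between the blocks, with its peak-free bases counted, they were 1.88 and 1.36, and 1.09 and 1.17. Median widths under that q-value limit were 300 bp (proximal, input) and 267 bp (distal, H3). Among the 20000 highest-q peaks they were 452.5 and 414.5 bp over input and 322 and 346 bp over H3, proximal first. Median folds under it were 5.02 and 5.29 over input and 5.36 and 5.49 over H3, and among the 20000 highest-q peaks 10.4, 10.6, 9.69 and 10.2 in the same order. Both limits keep only peaks of higher q-value, and what else moved these medians was not tested. The proximal share also called over H3 was 42.2% with 50% of both peaks shared and 58.9% with the q-value limit. Drawing the blocks in by 0.2 Mb moved no result beyond its interval, and the distal share stayed within its interval under all 4 alternatives. The lowest called summits held 8 reads over input and 11 over H3, and lower sites were not detectable at this depth.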
